A study of Mus musculus with 3 samples.

Results

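The small leucine-rich proteoglycans are secreted matrix proteins built around a chain of leucine-rich repeats. The 9 genes Aspn, Dcn, Bgn, Lum, Fmod, Omd, Ogn, Prelp and Podn were taken by symbol from the expression table, and all 9 of them were among its 15287 listed genes. They were measured by RNA-seq in MC3T3-E1 cells, a line of preosteoblasts from mouse calvaria with a wild-type genotype in every library. The CTL library came from cells with no treatment, the Ti library from cells kept for 24 h with Ti particles at 10 μg/cm², and the third, Ti+Se-Met, from cells that received 5 μM selenomethionine (Se-Met) along with that particle dose over the same 24 h. Ti particles were used to imitate the wear debris of joint prostheses, and Se-Met is a selenium-containing amino acid. There was 1 library per condition, from 1 cell line, so no difference below has a replicate check and no p-value is given.

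These proteoglycans bind the surface of collagen fibrils and set how thick fibrils grow and how they are spaced. Several carry chondroitin or dermatan sulfate chains, others carry keratan sulfate, and some also bind growth factors such as TGF-β. In bone, biglycan and decorin are abundant products of the osteoblast lineage, and osteomodulin is found mainly in mineralised tissue.

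Values are FPKM, fragments scaled to transcript length in kilobases and to the mapped depth of the library, so levels of different genes can be compared per length. A difference was counted as a call when it reached 2-fold on the scale of log2(FPKM + 1), among the 11137 genes with at least 1 FPKM in at least 1 library. All 9 proteoglycan genes passed, and all 9 were at 1 FPKM or more in every library, so none passed through the CTL library alone. The depth, estimated from the steps of single fragments in short genes, was about 14400000 fragments in CTL, 14800000 in Ti but 10200000 in Ti+Se-Met. Each fold is given with a 95% interval from the exact binomial test of estimated fragments conditional on their sum, which covers counting error only and compares libraries, not conditions. In a bulk library, fewer cells expressing a gene and less RNA per cell cannot be told apart.

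The preosteoblast label was checked with marker genes. Runx2, the master transcription factor of the osteoblast lineage, was at 26.77 FPKM in CTL, against 17.14 in Ti and 22.97 FPKM in Ti+Se-Met. Alpl, alkaline phosphatase, was at 1.51, 0.2 and 0.2 FPKM, and Sp7 and Bglap, genes of more mature osteoblasts, were below 1 FPKM in each library. Spp1, osteopontin, went the other way, at 1261.19, 3705.78 and 4659.49 FPKM, and was past 2-fold higher than CTL in both Ti-treated libraries. The last of the 6 markers, Col1a1, is given with the collagen chains. The 2 listed of 4 macrophage and leukocyte markers summed to between 0.08 and 0.52 FPKM, and the 1 listed of 3 endothelial markers to at most 0.24 FPKM. The 2 listed of 3 tenocyte markers, Scx and Mkx, summed to 10.21, 11.22 and 12.73 FPKM over CTL, Ti and Ti+Se-Met. The 2 listed of 4 chondrocyte markers, Sox9 and Col2a1, summed to 25.12, 36.49 and 40.01 FPKM. That sum was nearly all Sox9, at 24.94, 36.25 and 39.29 FPKM, since Col2a1 was at 0.18, 0.24 and 0.72 FPKM. Adipocyte, muscle and epithelial markers summed to at most 0.17, 1.1 and 0.47 FPKM. The tenocyte and chondrocyte sums were lowest in CTL, and their part in the results was not tested.

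Start sites of the genes discussed most are shown here because the 3 genes Aspn, Omd and Ogn lie next to each other on chromosome 13 and were the proteoglycans with the lowest Ti+Se-Met to CTL ratios, whereas Bgn, on chromosome X, was the member with the smallest difference. The sequences are from RefSeq on GRCm38.p6 and run from 250 bases before the start site to 50 bases from it. Their places are chr13:49544193-49544492 for Aspn, chr13:49582212-49582511 for Omd, chr13:49607765-49608064 for Ogn and chrX:73483351-73483650 for Bgn, all on the plus strand. The submitters' processing notes name mm9, but the table itself names no build, so the build behind the expression values is not settled and these places refer to GRCm38.p6 alone. Capitals mark any match on either strand to the TATA box core TATAAA, the AP-1 core TGANTCA, the RUNX factor core TGTGGT or the TCF/LEF factor core CTTTGA.
Aspn: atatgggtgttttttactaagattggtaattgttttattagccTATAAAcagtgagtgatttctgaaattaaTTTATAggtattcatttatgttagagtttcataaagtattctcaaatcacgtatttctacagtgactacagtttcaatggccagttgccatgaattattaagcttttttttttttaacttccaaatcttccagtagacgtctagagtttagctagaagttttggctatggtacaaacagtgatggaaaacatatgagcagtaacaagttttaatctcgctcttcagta
Omd: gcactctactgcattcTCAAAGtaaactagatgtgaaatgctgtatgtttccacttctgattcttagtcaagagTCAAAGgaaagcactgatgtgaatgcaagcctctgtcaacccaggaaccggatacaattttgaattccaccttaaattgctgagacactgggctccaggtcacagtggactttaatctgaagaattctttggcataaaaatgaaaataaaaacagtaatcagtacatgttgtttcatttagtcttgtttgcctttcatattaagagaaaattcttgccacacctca
Ogn: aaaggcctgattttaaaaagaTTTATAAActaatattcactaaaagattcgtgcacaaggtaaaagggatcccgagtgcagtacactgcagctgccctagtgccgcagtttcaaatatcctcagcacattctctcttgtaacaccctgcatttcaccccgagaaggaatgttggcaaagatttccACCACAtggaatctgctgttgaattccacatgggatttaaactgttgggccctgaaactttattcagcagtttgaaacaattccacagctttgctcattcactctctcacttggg
Bgn: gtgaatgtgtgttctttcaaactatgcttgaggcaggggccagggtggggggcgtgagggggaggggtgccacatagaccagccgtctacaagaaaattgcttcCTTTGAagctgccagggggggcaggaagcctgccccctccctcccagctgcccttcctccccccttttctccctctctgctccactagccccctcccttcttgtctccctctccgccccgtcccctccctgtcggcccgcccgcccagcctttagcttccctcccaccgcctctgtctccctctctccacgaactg
The promoters of the 3 neighbouring genes were poor in G and C, at 31.0% for Aspn, 37.7% for Omd and 42.3% for Ogn, while that of Bgn was at 63.7%. The median over 32851 mouse promoters of the same length was 52.7%, with quartiles of 45.7% and 61.7%. Of the 9 members, 7 had a promoter in the RefSeq table. TATAAA was found in 2 of the 7, against 13.6% of all promoters. In Aspn its matches began 207 and 178 bases before the start site. In Ogn they began 229 and 227 bases before it and overlapped each other on opposite strands. CTTTGA was found in Omd and Bgn (16.0% of all promoters), TGTGGT in Ogn (16.8%) and TGANTCA in 0 of the 7 (7.81%). A match is a run of letters only, and says nothing about binding.

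In the untreated CTL library, the family was led by Bgn, Dcn and Ogn. Bgn was at 910.28 FPKM, at rank 65 of the 11137 genes, Dcn at 822.73 FPKM (rank 82) and Ogn at 643.89 FPKM (rank 113). Aspn followed at 256.34 FPKM (rank 232), and Prelp at 88.99 FPKM (rank 774). Lum was at 45.03 FPKM, Omd at 18.76, Fmod at 7.15 and Podn at 6.99. The order was separated by more than counting error at each step except the last, since the 95% exact Poisson interval of Fmod (6.38 to 8.0 FPKM) overlapped that of Podn (6.23 to 7.82 FPKM).

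**Figure D1:**
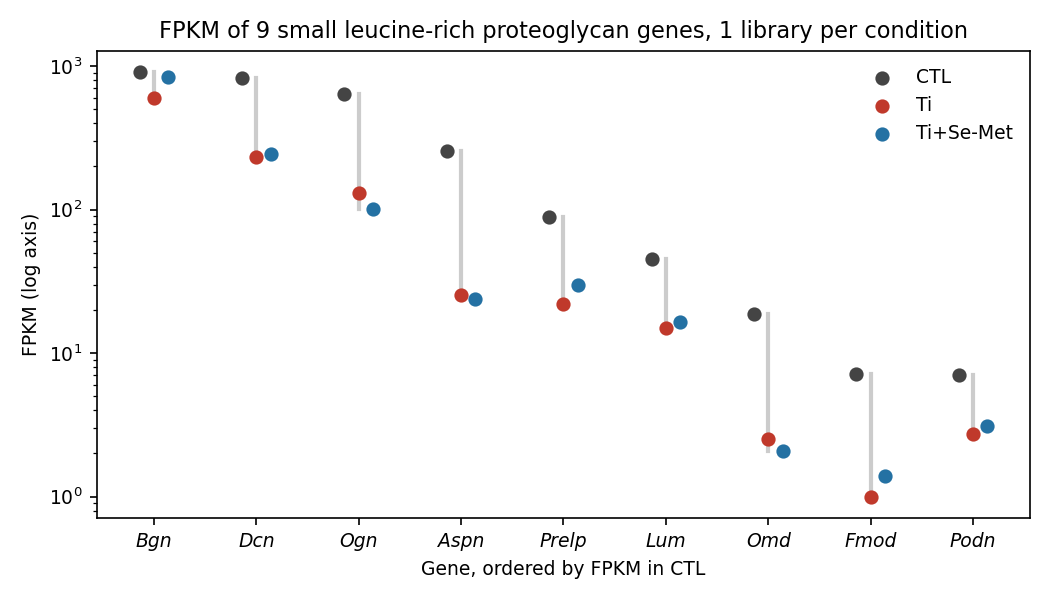
FPKM on a log axis for each of the 9 genes, ordered by their level in CTL, with 1 point per library and a grey line from the lowest to the highest value. Each CTL point is the highest of its gene, and the Ti and Ti+Se-Met points lie within 2-fold of each other, with folds from 0.776 for Ogn to 1.4 for Bgn and 1.39 for Fmod.

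Ti particles went with lower values of all 9 genes. Of the 11137 genes, 4961 were lower and 55.3% higher (40.3% higher after TPM scaling). By at least 2-fold, 8 of the 9, all but Bgn, were lower. Of the 11137 genes, 3.64% were lower and 3.63% higher by this measure. The split was 7.76% and 2.09% after TPM scaling and 4.8% and 2.17% after upper-quartile scaling, with the same 8 genes lower. The median difference of the 9 genes was -1.97 on the log2(FPKM + 1) scale, and that of all genes was 0.08. In the Ti+Se-Met library, the 9 genes were again below CTL, as were 5440 of all genes (51.0% were above, or 35.7% after TPM scaling). By 2-fold or more, 7 of the 9 were lower (3.32% of all genes, with 2.64% higher). After TPM scaling 8 were lower (7.35% of all genes, with 2.01% higher). The median was -1.74 against 0.01 for all genes. Both comparisons use the same CTL library. Between Ti+Se-Met and Ti, 0 of the 9 genes differed by 2-fold in either direction (0.162% of all genes were higher and 0.0629% lower), and the median difference was 0.12 against -0.06 for all genes. At 4-fold, 4 genes (Aspn, Fmod, Omd and Ogn) were lower in Ti than in CTL (0.278% of all genes, with 0.233% higher), 3 (Aspn, Omd and Ogn) in Ti+Se-Met (0.215%, with 0.224% higher), and 0 in Ti+Se-Met against Ti (0.018%). Fmod, at -2.03, was just inside 4-fold in Ti, and with a pseudocount of 5 in place of 1 Fmod (-1.02) and Omd (-1.66) were outside it. Prelp, at -1.97, was just outside 4-fold in Ti. It was inside with a pseudocount of 0.1 (-2.01) and after TPM scaling (-2.22), where Dcn (-2.06) was inside too.

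The decorin and biglycan pair, close relatives that carry chondroitin or dermatan sulfate chains, differed in how far they lay below CTL. Dcn, which encodes decorin, a regulator of fibril diameter that also binds TGF-β, was at 822.73 FPKM in CTL, against 231.64 in Ti and 245.59 FPKM in Ti+Se-Met. CTL was high and both Ti-treated libraries were low and near each other. The CTL level was 3.55 times the Ti level (interval 3.45 to 3.66), and Ti+Se-Met was 1.06 times Ti (interval 1.02 to 1.1). Bgn, which encodes biglycan, a binder of collagen and of BMP and TGF-β ligands, was at 910.28, 600.78 and 838.12 FPKM. Its Ti library was the low one, 1.52-fold below CTL (interval 1.49 to 1.54). Ti+Se-Met was 1.4 times Ti (interval 1.37 to 1.42) and only 1.09-fold below CTL (interval 1.07 to 1.11). The difference of Bgn in Ti against CTL, -0.60 on the log2(FPKM + 1) scale, was exceeded in the downward direction by 10.9% of all genes, whereas for Dcn (-1.82) this held for 0.377% of genes.

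Within 1 library, the ratio of 2 genes does not depend on the scaling between libraries. The level of Bgn was 1.11 times that of Dcn in CTL, 2.59 times in Ti and 3.41 times in Ti+Se-Met. Against Ogn it was 1.41 times in CTL, 4.61 times in Ti and 8.29 times in Ti+Se-Met. Dcn and Lum, by contrast, kept a ratio of 18.3, 15.5 and 15.0 in the 3 libraries.

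Aspn encodes asporin, a relative of decorin and biglycan that binds collagen and TGF-β and, unlike them, is usually not a proteoglycan in the strict sense. It was at 256.34 FPKM in CTL, against 25.37 in Ti and 23.81 FPKM in Ti+Se-Met. The CTL library was far above both others, which did not differ beyond counting error (fold 0.939 in Ti+Se-Met against Ti, interval 0.84 to 1.05). CTL was 10.1 times Ti (interval 9.4 to 10.9) and 10.8 times Ti+Se-Met (interval 9.86 to 11.8). The log2(FPKM + 1) difference was -3.29 in Ti, against -3.37 in Ti+Se-Met, and among the 11137 genes Aspn was at rank 2 and rank 3 from the lowest.

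Ogn encodes osteoglycin, also called mimecan, a small leucine-rich protein of bone and connective tissue matrix. It was at 643.89 FPKM in CTL, against 130.4 in Ti and 101.14 FPKM in Ti+Se-Met. CTL was the high library, and Ti+Se-Met was below Ti. CTL was 4.94 times Ti (interval 4.78 to 5.1) and 6.37 times Ti+Se-Met (interval 6.11 to 6.64). The fold in Ti+Se-Met against Ti was 0.776 (interval 0.738 to 0.814), so Ogn was the 1 gene of the 9 for which this interval lay below equal levels.

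Omd encodes osteomodulin, or osteoadherin, a keratan sulfate proteoglycan of bone that binds cells and mineral. It was at 18.76 FPKM in CTL, against 2.52 in Ti and 2.09 FPKM in Ti+Se-Met, which rested on about 567, 78 and 45 fragments. CTL was again the high library, at 7.44 times Ti (interval 5.89 to 9.59) and 8.98 times Ti+Se-Met (interval 6.58 to 12.4). The interval of Ti+Se-Met against Ti held equal levels (fold 0.829, interval 0.567 to 1.22).

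Lum and Fmod encode lumican and fibromodulin, keratan sulfate proteoglycans that bind collagen at overlapping sites. Lum was at 45.03 FPKM in CTL, against 14.93 in Ti and 16.35 FPKM in Ti+Se-Met, a CTL to Ti ratio of 3.02 (interval 2.72 to 3.34). Fmod was at 7.15, 1.0 and 1.39 FPKM, and its CTL to Ti ratio of 7.15 (interval 5.2 to 10.0) was the one with the widest interval among the 9 genes in Ti against CTL, on 44 fragments in Ti. For both genes CTL was the high library, and the interval of Ti+Se-Met against Ti held equal levels, with 0.956 to 1.25 for Lum and 0.886 to 2.16 for Fmod.

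Prelp encodes a heparin-binding member that links basement membranes to collagen. It was at 88.99 FPKM in CTL, against 22.03 in Ti and 29.88 FPKM in Ti+Se-Met, so that both Ti-treated libraries were low and Ti+Se-Met stood between Ti and CTL. CTL was 4.04 times Ti (interval 3.78 to 4.31), and Ti+Se-Met was 1.36 times Ti (interval 1.25 to 1.48). Podn encodes podocan, a collagen-binding member of a separate branch of the family. It was at 6.99, 2.72 and 3.08 FPKM, with a CTL to Ti ratio of 2.57 (interval 2.07 to 3.19). In Ti+Se-Met against CTL its log2(FPKM + 1) difference was -0.97, just short of a call, and in Ti against CTL it was -1.10, just inside.

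**Figure D2:**
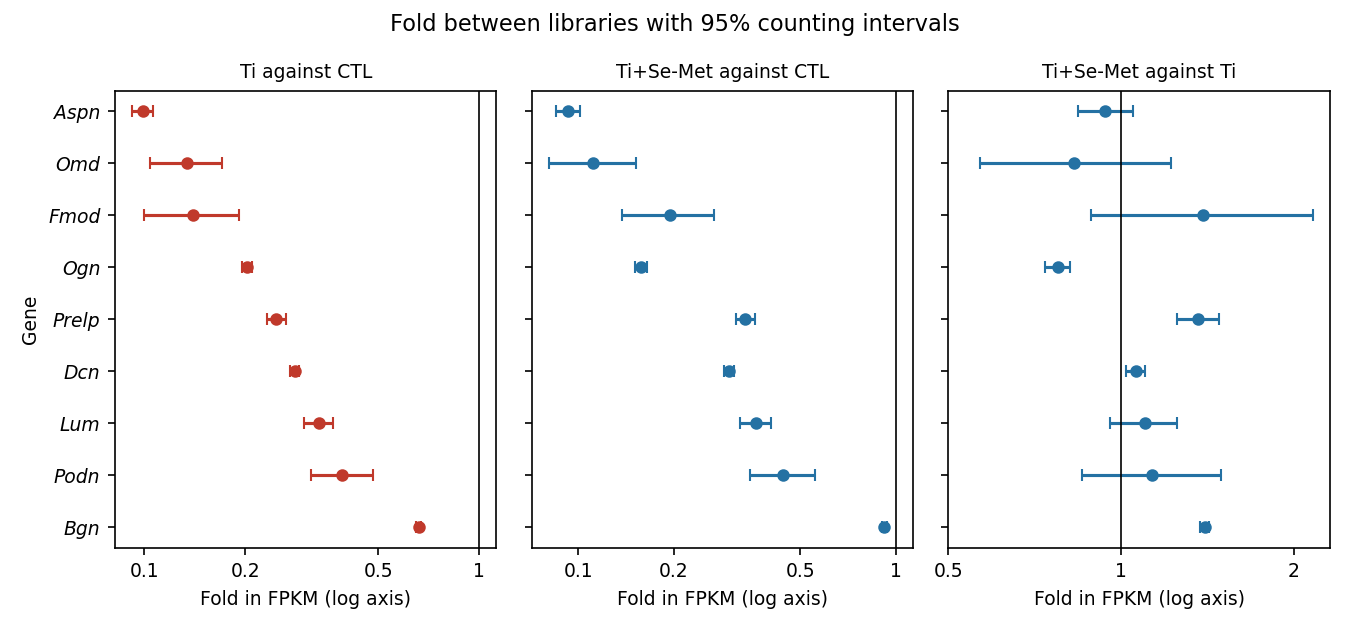
Fold in FPKM on a log axis for the 3 pairs of libraries, with points for the ratio and bars for the 95% counting interval, and a vertical line at equal levels. All 9 intervals lie below equal levels in both comparisons with CTL, while in Ti+Se-Met against Ti those of Bgn, Prelp and Dcn lie above it, that of Ogn below it and the other 5 across it. The intervals cover counting error only, and the share of all genes with such intervals was not worked out.

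The order of the levels moved between libraries. Bgn, Dcn and Ogn led, in that order, in each. Omd, ahead of Podn and Fmod in CTL, was below Podn in both Ti-treated libraries, although their Poisson intervals overlapped there (2.27 to 3.26 FPKM for Podn and 1.98 to 3.13 for Omd in Ti). Aspn was above Prelp in CTL and Ti, and below it in Ti+Se-Met, where Prelp was at 28.1 to 31.7 FPKM and Aspn at 21.8 to 25.9 FPKM by their intervals. The Prelp to Aspn ratio was 0.347 in CTL, 0.868 in Ti, then 1.25 in Ti+Se-Met.

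Added over the 9 genes, the FPKM was 2800.16 in CTL, against 1031.39 in Ti and 1261.45 FPKM in Ti+Se-Met, which was 0.625%, 0.196% and 0.245% of the summed FPKM of each library. Bgn made up 32.5% of the family sum in CTL, but 58.2% in Ti and as much as 66.4% in Ti+Se-Met. Dcn made up 29.4%, 22.5% and 19.5%, and Ogn 23.0%, 12.6% and 8.02%. Aspn went from 9.15% of the sum in CTL to 2.46% in Ti, then 1.89% in Ti+Se-Met. The 1.22-fold higher sum in Ti+Se-Met than in Ti rested on Bgn, since without it the sums were 430.61 FPKM in Ti, against 423.33 in Ti+Se-Met, a fold of 0.983.

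**Figure D3:**
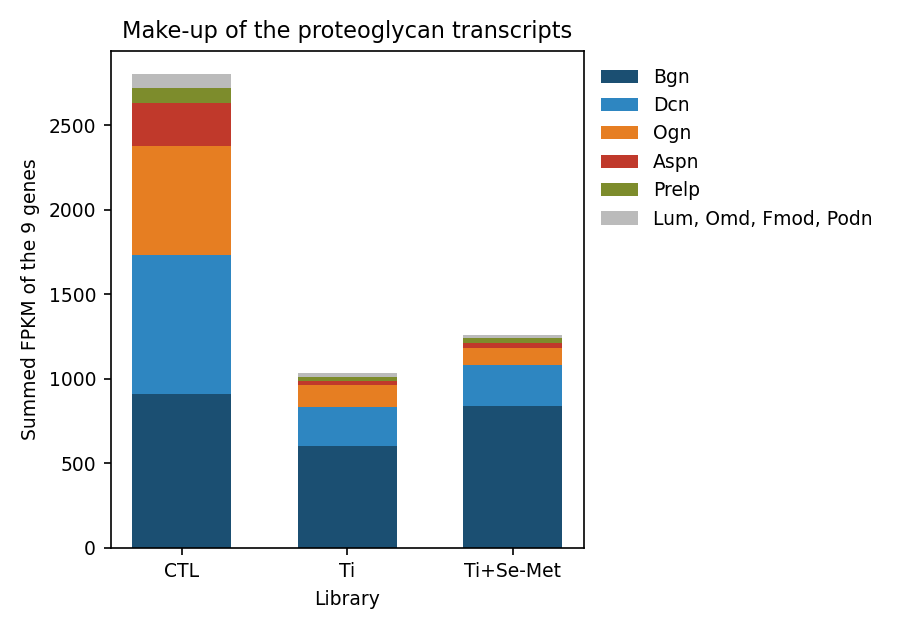
Summed FPKM of the 9 genes in each library as bars from 0, split by gene, with Lum, Omd, Fmod and Podn drawn together. The CTL bar reaches 2800.16 FPKM and is shared mainly by Bgn, Dcn and Ogn, while Bgn takes more than any other gene in Ti (58.2%) and Ti+Se-Met (66.4%).

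Members of the family lie in groups on the chromosomes, and their order was read from the RefSeq annotation of GRCm38.p6. On chromosome 13 the order is Ecm2, Aspn, Omd, Ogn, where Ecm2 encodes a matrix protein with leucine-rich repeats related to the family. Ecm2 was at 2.39 FPKM in CTL, against 0.5 in Ti and 0.41 FPKM in Ti+Se-Met, so it was high in CTL, at 4.78 times Ti (interval 3.06 to 7.49). It passed the filter through CTL alone, which favours a lower value in the other libraries. The log2(FPKM + 1) differences of Aspn, Omd and Ogn lay between -3.29 and -2.30 in Ti against CTL and between -3.37 and -2.66 in Ti+Se-Met against CTL. Those of the 6 members on other chromosomes lay between -2.03 and -0.60, and between -1.77 and -0.12. In Ti against CTL this gap depended on the setting. Fmod, on chromosome 1, was below Ogn with a pseudocount of 0.1 (-2.72 against -2.30) and after TPM scaling (-2.55 against -2.53). In Ti+Se-Met against Ti, the 3 members on chromosome 13 were below 0 and the 6 others above 0. Of the 11137 genes, 38.5% were above 0 in that comparison, a share that rose to 43.9% under TPM and 50.1% under upper-quartile scaling. For Aspn, Omd, Lum, Fmod and Podn the counting interval of that fold held equal levels, so their side of 0 is not settled. Aspn was at -0.021 under upper-quartile scaling. The grouping by chromosome was noticed in these values and was not tested.

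The genes that flank the group on chromosome 13 were all within 2-fold of CTL. Ippk, in the order CTL, Ti and Ti+Se-Met, was at 3.96, 2.81 and 2.9 FPKM, and Nol8 at 4.42, 5.81 and 4.33 FPKM. Iars, an aminoacyl-tRNA synthetase gene, was at 20.98, 39.06 and 32.56 FPKM. Cenpp, a gene of a centromere protein that spans the whole group on the opposite strand, was at 3.24, 3.47 and 4.63 FPKM. In GENCODE M21, Cenpp shares 7 of the 2354 exon bases of Aspn and 0 of those of Omd, Ogn and Ecm2, so few fragments could be claimed by both genes.

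On chromosome 10, Dcn and Lum are followed by Kera and Epyc, which encode keratocan of the cornea and epiphycan of cartilage. Epyc was at 1.15 FPKM in CTL, against 0.13 in Ti and 0.3 FPKM in Ti+Se-Met, and Kera at 0.62, 0.08 and 0.11 FPKM, on an estimated 26, 3 and 5 fragments for Epyc and 19, 3 and 2 for Kera. The CTL to Ti ratio was 8.85 for Epyc (interval 2.73 to 46.0) and 7.75 for Kera (interval 1.92 to 34.3). An unlisted gene on the other strand covers 40.6% of the exon bases of Epyc in GENCODE M21, so its few fragments are uncertain. Of the flanking genes there, Eea1, an endosome gene, was at 61.17, 27.84 and 33.05 FPKM, a log2(FPKM + 1) difference of -1.11 in Ti against CTL that was also past 2-fold. Btg1, between Eea1 and Dcn, was at 58.79, 101.06 and 97.56 FPKM, and Atp2b1, which follows Epyc, at 29.86, 32.98 and 34.83 FPKM. On chromosome 1, Prelp and Fmod lie between Optc, at 0.23 FPKM or less in each library, and Btg2, at 5.02, 7.53 and 4.35 FPKM. In GENCODE M21, 9.68% of the exon bases of Prelp lie under an unlisted gene on the other strand. Next to Podn on chromosome 4, Scp2, a lipid transfer gene, was at 35.3, 21.55 and 20.67 FPKM, and next to Bgn on chromosome X, Haus7 was at 15.68, 17.63 and 17.23 FPKM. Of the flanking genes on the 5 chromosomes that passed the filter, Eea1 alone was past 2-fold in Ti against CTL.

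**Figure D4:**
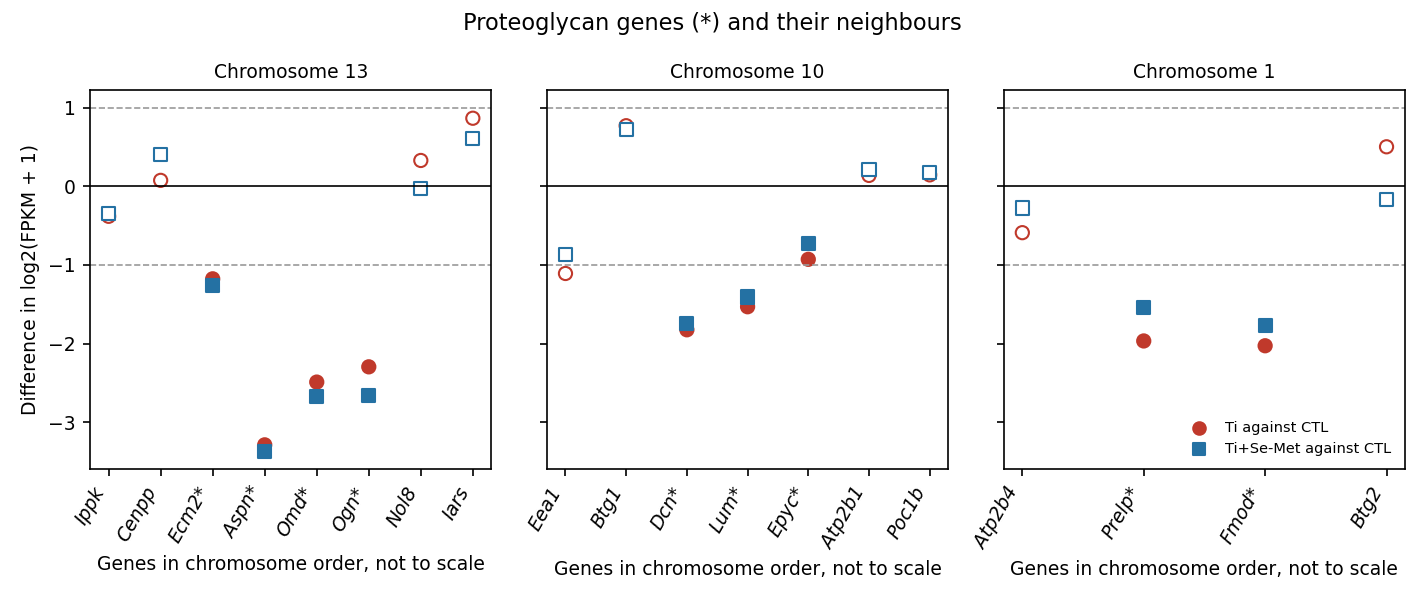
Difference in log2(FPKM + 1) for family genes (filled, marked by a star) and flanking genes (open) in chromosome order, with circles for Ti against CTL, squares for Ti+Se-Met against CTL and dashed lines at 2-fold. Genes below 1 FPKM in each library are left out, and Ecm2 and Epyc passed through CTL alone, the library in which they were high. On chromosome 13, in Ti, Aspn, Omd and Ogn lie at or below -2.30, Ecm2 at -1.18 and the flanking genes between -0.38 and 0.87.

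The 9 other family genes that were searched by symbol were at 16.81 FPKM or less, and 5 of them passed the filter. Besides Ecm2 and Epyc these were Tsku, Nyx and Podnl1. Tsku encodes tsukushi, a secreted modulator of signalling, and was at 16.65, 16.81 and 15.03 FPKM, with an interval of the Ti to CTL fold from 0.898 to 1.13. Nyx, known as a gene of the retina, was at 1.61, 1.95 and 1.4 FPKM, and Podnl1, a relative of Podn, at 2.55, 2.08 and 2.65 FPKM. In these 3 genes the interval of Ti against CTL held equal levels. Chad, a cartilage gene, was at 0.14 FPKM in CTL and listed at 0 in the other libraries, and Chadl was at 0.41, 0.22 and 0.08 FPKM. Ecm2 and Epyc passed the filter through CTL alone, the library in which they were high, so no count or median over the 5 is given.

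The deposited annotation of the 9 genes lists extracellular space for all 9 (4.57% of the 11137 genes) and collagen-containing extracellular matrix for 8 (1.54%). It lists a structural role in resisting compression for Aspn, Dcn, Bgn, Lum, Ogn and Prelp, which are 6 of the 9 genes with that term in the whole filtered table.

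Among the enzymes that make the sugar chains, none that passed the filter was past 2-fold in the deposited FPKM. By that measure 3.64% of all genes were lower and 3.63% higher in Ti against CTL, and fewer in the other comparisons. At such shares few calls would fall in lists of this size. TPM scaling multiplies Ti values by 0.852 relative to CTL, and calls after it were not counted for these lists. Of 27 genes for chondroitin and dermatan sulfate synthesis, 22 passed the filter, and 0 of the 22 were past 2-fold in any comparison, with a median of -0.14 in Ti against CTL. Their differences ran from -0.83 for Chst15, a sulfotransferase, to 0.79 for B4galt7, a linker galactosyltransferase, so some lay further from CTL than Bgn (-0.60). Both were named after their values were seen. Slc35b2, the Golgi importer of the sulfate donor and the highest of them by mean, was at 52.47, 70.19 and 53.35 FPKM. Of 9 genes for keratan sulfate synthesis, 6 passed and 0 were past 2-fold, with a median of -0.13. B4galt1, a galactosyltransferase and their highest gene, was at 55.63, 59.09 and 63.23 FPKM.

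Collagen chains, to which the proteoglycans bind, were lower as well. Of 13 chains, 11 passed the filter. In Ti against CTL 6 of the 11 were lower by at least 2-fold (3.64% of all genes), with a median of -1.11. In Ti+Se-Met against CTL 3 were lower by 2-fold (3.32% of all genes) and the median was -0.58. Col1a2, the highest by mean, was at 2688.49, 998.91 and 1256.6 FPKM, Col1a1 at 1333.19, 354.2 and 481.63, Col11a1 at 11.23, 2.53 and 3.42, and Col6a3 at 406.84, 158.95 and 217.66. All 11 chains were above their Ti level in Ti+Se-Met, by a median of 0.37. The ratio of Col1a1 to Dcn was 1.62 in CTL, 1.53 in Ti, then 1.96 in Ti+Se-Met, while that of Col1a1 to Bgn was 1.46, 0.59 and 0.575. Whether the proteoglycans differ from the collagens in their response was not tested, since there was 1 library per condition.

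Among 12 other fibre partners that passed, 1 of them (Tnxb) through CTL alone, 3 were past 2-fold in Ti against CTL, all lower. In that comparison 3.64% of all genes were lower by 2-fold. Postn, periostin, was at 2904.07, 419.52 and 446.61 FPKM, Thbs1, thrombospondin, at 79.98, 34.11 and 55.79, and Fbn1, fibrillin, at 15.24, 6.25 and 8.02. Fn1, fibronectin, the highest by mean, was at 1400.47, 1296.64 and 1755.64 FPKM. Lox, a collagen cross-linking enzyme, was at 88.33, 117.86 and 132.25 FPKM.

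Of 18 ligands and receptors with known ties to the family that passed, 1 was higher and 1 lower past 2-fold in Ti against CTL. Of all genes, 3.63% were higher and 3.64% lower by that measure. Tgfb1 was at 10.98, 24.96 and 28.87 FPKM, and Tgfb2 at 10.75, 4.28 and 3.93 FPKM, so Tgfb1 and Tgfb2 lay in opposite directions. Tgfb3, the highest TGF-β ligand of the list, was within 2-fold, at 39.15, 33.69 and 33.17 FPKM. It is outside the naming rule and was named after its values were seen. Lrp1, an endocytic receptor and the highest of the list, was at 403.55, 365.46 and 431.95 FPKM. Of 11 proteases and processing factors that passed, 2 were lower by 2-fold in Ti against CTL (3.64% of all genes). Adamts1, a protease of proteoglycans, was at 72.92, 15.54 and 13.67 FPKM, and Mmp9, a gelatinase outside the naming rule and named after its values were seen, at 9.48, 1.46 and 1.95. Pcolce, the enhancer of procollagen processing, was the highest at 536.02, 368.9 and 428.98 FPKM, and Bmp1, the protease that also trims pro-biglycan, was at 40.29, 27.69 and 35.69 FPKM. Among 14 large and membrane proteoglycans that passed, 1 of them (Spock2) did so through CTL alone. In Ti against CTL 1 was past 2-fold, Agrn (agrin), which was lower (3.64% of all genes). Agrn was at 24.92, 10.15 and 11.96 FPKM. Gpc1, a glypican and the highest by mean, was at 123.63, 157.53 and 208.18 FPKM.

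**Figure D5:**
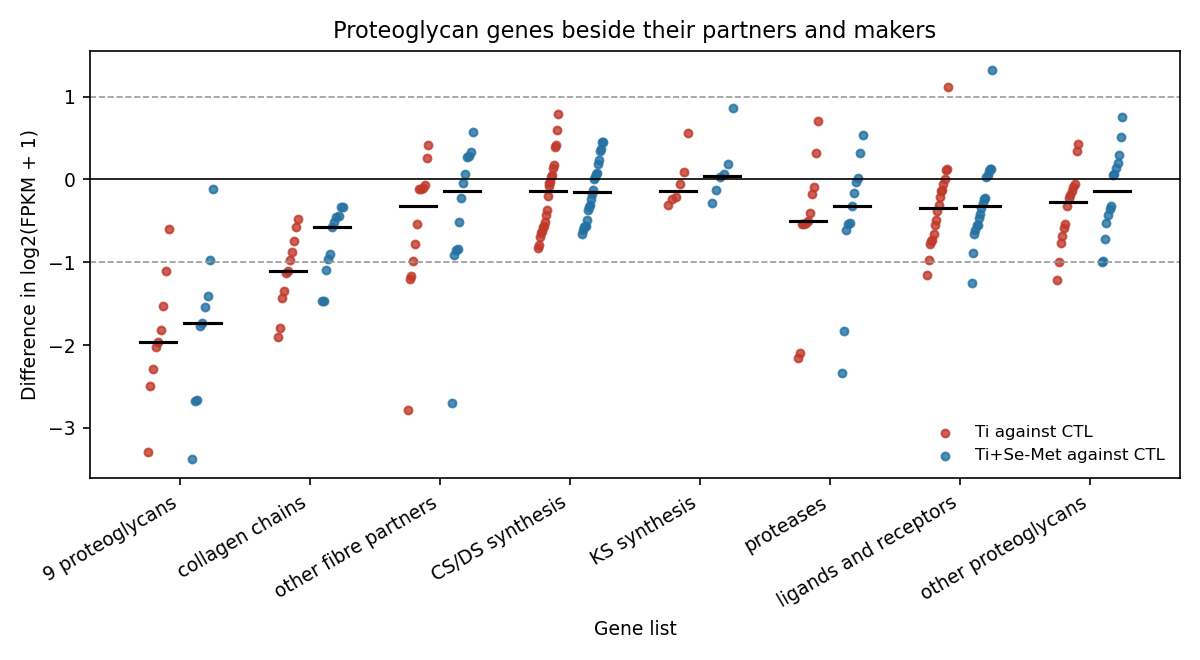
Difference in log2(FPKM + 1) against CTL for each gene that passed the filter in 8 lists (CS/DS, chondroitin and dermatan sulfate; KS, keratan sulfate), with 1 point per gene, red for Ti and blue for Ti+Se-Met, black bars at the medians and dashed lines at 2-fold. The medians of the 9 proteoglycans, -1.97 and -1.74, are the lowest of the lists drawn, followed by the collagen chains at -1.11 and -0.58. Members and lists were chosen with earlier results of these data known, and the 9 other family genes are not drawn.

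Among 8722 genes outside the family with a mean of at least 5 FPKM, likeness was measured as the distance between pairs of log2(FPKM + 1) differences (Ti against CTL and Ti+Se-Met against CTL), which rest on the 3 libraries and share CTL. The genes nearest to the median pair of the 9 members, -1.97 and -1.74, were Alox5ap, Hopx, Glt8d2, Rps6ka5 and Lrrc17, at distances from 0.024 to 0.12. Hopx was at 57.96, 14.22 and 17.35 FPKM, and Alox5ap at 20.33, 4.55 and 5.38 FPKM. Nearest to Aspn were Otor, Postn, Enpep, Apod and Abi3bp, at distances from 0.81 to 1.26. Otor was at 27.89, 0.91 and 0.96 FPKM.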

How the data were processed

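The 3 RNA-seq libraries of MC3T3-E1 cells stood for 1 condition each, and each FPKM column was matched to its library by name (0 columns unmatched). According to the methods and the submitters' processing notes, the authors filtered reads, used HISAT2 for alignment and HTSeq for gene counts, and deposited FPKM per gene, rounded to 2 decimals. StringTie and mm9 are named in the notes. How FPKM was made from counts, and any scaling between libraries, are not given in the sources used here.

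In Python 3.11.15 (scipy 1.17.1, numpy 2.4.6, pandas 2.3.3), log2(FPKM + 1) was differenced over genes with at least 1 FPKM in at least 1 library, and 2-fold was counted. FPKM is not a count, so no count model was run, and no test could be made without replicates. The depth was the number of fragments that put the most low values of 453 short genes (350 to 1000 bases, 1 transcript, 150 bases subtracted, GENCODE M21 lengths) within 0.09 of a whole fragment. Between 53.1% and 61.7% of the values lay there, against 18.0% by chance, so fragments are approximate. The steps were tested on simulated Poisson counts, made with the same transcript lengths and the same 150 bases subtracted. That test could not check the lengths, the subtraction or error beyond counting.

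Named were the 9 members, other family genes, chromosome neighbours, per list the highest gene and up to 4 past 2-fold with a mean of at least 5 FPKM, and the 5 genes most alike. Epyc, Kera and other low genes are given in full as family genes. Lox, Bmp1 and the pairs of genes set as ratios were chosen after their values were seen. Members and lists were chosen with earlier results of these data known. Protein sequences and the promoters of Dcn and Lum were not used here.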

Additional observations from a re-analysis of the deposited data

How the results depend on the processing

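No paired analysis was possible because there were no replicates (1 library a condition), which also left no library to drop. The direction of all 9 genes against CTL, and the 6 higher and 3 lower in Ti+Se-Met against Ti, were the same with pseudocounts of 0.1 and 5, without a filter, and after scaling by TPM, by median of ratios and by upper quartile. Under these settings, 40.3% to 55.3% of all genes were above CTL in Ti and 35.7% to 52.9% in Ti+Se-Met. Above Ti in Ti+Se-Met were 37.8% to 50.1%. With a mean of at least 5 FPKM, Fmod and Podn dropped out, and 4 of 7 were higher in Ti+Se-Met than in Ti (38.4% of all genes). The number past 2-fold against CTL was 8 for Ti, 7 for Ti+Se-Met. It became 4 (Aspn, Fmod, Omd and Ogn, against 0.278% of all genes) and 3 (Aspn, Omd and Ogn, against 0.215%) at 4-fold by construction, and 9 and 8 at 1.5-fold, where 11.3% and 11.7% of all genes were lower. With a pseudocount of 5 it was 7 and 6 (1.55% and 1.1% of all genes), since Podn was lost in Ti and Fmod (-0.93) in Ti+Se-Met. With a mean of at least 5 FPKM it was 6 of 7 in both (3.1% and 2.54%). Under the other settings it was 8 in Ti and 7 or 8 in Ti+Se-Met, with 2.65% to 7.76% and 2.42% to 7.35% of all genes lower. TPM gave 7.76% lower and 2.09% higher in Ti, and 7.35% and 2.01% in Ti+Se-Met. Between the Ti-treated libraries 0 passed under each setting run.

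The median difference in Ti against CTL, -1.97, moved to -1.66 with a pseudocount of 5, -2.22 with TPM and -2.10 with the upper quartile. Against the same CTL, the Ti+Se-Met median of -1.74 moved to -1.43, -1.94 and -1.81. A larger pseudocount shrinks ratios of low genes by construction. The scalings moved the median of all genes, to -0.14 (Ti) and -0.17 (Ti+Se-Met) with TPM. TPM also raises the values to which the pseudocount of 1 is added, so low genes moved further than high ones. In Ti against CTL, Bgn went from -0.60 to -0.83 and Fmod from -2.03 to -2.55. Depth was lowest for Ti+Se-Met, where Omd, Fmod and Podn rested on 45, 42 and 95 fragments. Counting error in Ti+Se-Met against Ti allows folds of 0.567 to 1.22 for Omd, 0.886 to 2.16 for Fmod and 0.855 to 1.49 for Podn.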
